A study of Mus musculus with 12 samples.

Results

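The 10 genes described here, *Stab1*, *Stab2*, *Lyve1*, *Clec4g*, *Fcgr2b*, *Cdh5*, *Kdr*, *Pecam1*, *Ptprb* and *Tek*, are expressed by the endothelial cells that line the sinusoids of the liver. Of these, *Cdh5*, *Kdr*, *Pecam1*, *Ptprb* and *Tek* are genes of endothelium in general and do not mark sinusoids alone. Whole liver does not separate its vessels. The 10 genes were found by symbol among the 24411 genes of the count table. All 10 passed the filter on low counts, which kept 13922 genes. The genes were selected on earlier results of these same libraries, so their levels, fold changes and calls are given as a description, with no p values, and nothing is tested with them.

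Liver RNA came from mice of 3 genotypes, with 3 mice in each. The cont. mice carried *Atg7* flox/flox, and the *Atg7*-KO mice carried *Atg7* flox/flox with Alb-*Cre*, which deletes *Atg7* in hepatocytes. A further genotype, Atg7-KO;p62T352A, added the p62T352A allele on both chromosomes to *Atg7* flox/flox and Alb-*Cre*, and is called the knock-in below. All groups thus shared the floxed *Atg7* alleles, were 3 months old and had a C57BL/6 background, and the cont. mice carried no Cre. The knock-in was made by prime editing of an embryonic stem cell line and is present in every cell, endothelial cells included, whereas Alb-*Cre* is not active in endothelial cells. In such mice the allele in endothelial cells and the allele in hepatocytes cannot be told apart. Labels for 3 further mice with p62T352A and no Cre have no column in the table, and these mice were not analysed here.

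Sinusoidal endothelial cells form the sieve between blood and hepatocytes. They lack an ordinary basement membrane, carry open pores and clear waste from blood through scavenger receptors and an Fc receptor. VEGF from hepatocytes, acting through the receptor encoded by *Kdr*, is known to keep them in this state, and the angiopoietin receptor encoded by *Tek* is known to keep vessels quiet. When these cells lose their pores, they are known to take on genes of ordinary capillaries, such as *Cd34*.

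*Atg7* itself measured 46.4, 44.2 and 55.4 CPM (normalised counts relative to the TMM-scaled library size) in cont. mice 1, 2 and 3, 10.1, 9.57 and 12.0 in the *Atg7*-KO mice, and 29.7, 27.4 and 29.5 in the knock-in mice. It was lower than cont. in *Atg7*-KO (log2 fold change -2.20, SE 0.17, edgeR adjusted p = 2.55e-05) and, by less, in the knock-in (-0.75, SE 0.16, edgeR adjusted p = 0.0206). The knock-in mice thus kept more *Atg7* RNA than the *Atg7*-KO mice (1.45, SE 0.17, edgeR adjusted p = 0.000164), although the labels give them the same floxed alleles and Alb-*Cre*. For these libraries the genotype of the knock-in mice is taken from their labels. By immunoblot, the study found hardly any ATG7 protein in livers of *Atg7*-KO mice, with or without the p62 mutation. Libraries held 9671080 to 23285132 counts. The TMM factors were 1.28 to 1.32 in *Atg7*-KO and 0.750 to 0.953 in the other mice, so the scaling itself moved with genotype. Cont. mouse 1 had the largest library and the lowest factor, 0.750, and stood apart from the other cont. mice in several genes below, which are therefore given with and without it. The mice numbered 1 had 7 to 28 counts of *Xist*, a transcript of the inactive X chromosome, and the other mice 8578 to 18335. The 10 genes had between 84 and 2247 counts per mouse. Nothing in the labels says that the mice were of separate litters, and p values measure only the spread between these mice. In whole liver, fewer endothelial cells, less RNA per endothelial cell and more RNA from other cells cannot be told apart.

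The genes lie on 8 chromosomes, and all are protein-coding. On mm10, the junction and receptor genes are *Kdr* at chr5:75932827-75978458, *Cdh5* at chr8:104101625-104144511, *Pecam1* at chr11:106654217-106750628, *Tek* at chr4:94739289-94874976 and *Ptprb* at chr10:116275523-116389535. The scavenger, lectin and Fc receptor genes are *Stab1* at chr14:31139013-31168641, *Stab2* at chr10:86841198-87008025, *Lyve1* at chr7:110850607-110863239, *Clec4g* at chr8:3707064-3720651 and *Fcgr2b* at chr1:170958617-170976547. *Cdh5*, *Tek* and *Ptprb* are on the plus strand and the other 7 on the minus strand. Exons of *Stab1*, *Stab2*, *Clec4g* and *Fcgr2b* overlap *Nt5dc2*, *Gm16268*, *Gm16553* and *Gm38204*, in that order, each on the opposite strand. The strand setting of the counting is not given in the sources used here. *Nt5dc2* measured 3.61 to 7.38 CPM over the 9 mice, far below *Stab1*. *Gm16268*, *Gm16553* and *Gm38204* are not in the count table, so their levels could not be checked. Of the 75-base stretches of *Fcgr2b*, 5.43% also occur in other genes, *Fcgr3* among them, so its reads are less certain to be its own.

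The stretch before the start site is shown for *Kdr*, which had the largest difference of the 10 genes between the mutants, and for *Stab1* and *Stab2*, which differed little there. The 250 bases before each start (RefSeq, GRCm38.p6, all on the minus strand) read 5′ to 3′ as follows, at chr5:75978456-75978705, chr14:31168642-31168891 and chr10:87007943-87008192.
Kdr: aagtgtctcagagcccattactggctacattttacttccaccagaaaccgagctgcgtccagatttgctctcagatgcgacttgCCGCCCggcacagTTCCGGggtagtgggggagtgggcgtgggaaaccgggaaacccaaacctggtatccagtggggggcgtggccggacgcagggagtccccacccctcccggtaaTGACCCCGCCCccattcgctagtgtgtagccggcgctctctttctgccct
Stab1: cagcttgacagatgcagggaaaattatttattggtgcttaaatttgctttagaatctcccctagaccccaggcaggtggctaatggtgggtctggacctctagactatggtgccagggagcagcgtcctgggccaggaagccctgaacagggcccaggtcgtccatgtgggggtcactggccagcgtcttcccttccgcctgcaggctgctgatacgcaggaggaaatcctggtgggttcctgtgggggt
Stab2: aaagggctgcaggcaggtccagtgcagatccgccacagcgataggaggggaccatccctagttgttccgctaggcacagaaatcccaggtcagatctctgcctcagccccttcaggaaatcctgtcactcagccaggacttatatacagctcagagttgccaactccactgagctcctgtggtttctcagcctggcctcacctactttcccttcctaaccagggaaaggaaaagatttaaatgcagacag
Capitals mark matches, on either strand, to CCGGAA (a core of ETS factor sites, which are known in endothelial promoters), AGATAA (bound by factors of the GATA family), GGGCGG (a site of the general factor SP1) and TGACNNNGC (the core of NRF2 sites). In the *Kdr* stretch the ETS letters began at -153 from the start, those of SP1 occurred at 2 places, and those of NRF2 began at -50, where they overlap the nearer SP1 match. Neither *Stab1* nor *Stab2* held any of these letters. Of 32851 promoters of this length, 12.0% held the ETS letters, 9.99% those of the GATA family, 32.7% those of SP1 and 10.2% those of NRF2. RefSeq promoters were at hand for 6 of the 10 genes (*Clec4g*, *Fcgr2b*, *Kdr*, *Stab1*, *Stab2* and *Tek*), and *Kdr* alone of these 6 held a match. The *Kdr* stretch had a GC content of 61.6% with 16 CG pairs, against 57.2% with 5 for *Stab1* and 53.2% with 3 for *Stab2*. A match of letters is a description and not a binding site.

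*Kdr*, which encodes VEGFR2, the main signalling receptor for VEGF-A on endothelium, was low in the knock-in mice alone. It measured 51.3, 36.0 and 38.8 CPM in cont. mice 1 to 3, 38.0, 42.1 and 41.9 in *Atg7*-KO mice, and 6.86, 7.495 and 6.20 in knock-in mice. Cont. and *Atg7*-KO mice overlapped, and every knock-in mouse lay far below all of them. The fitted level was 5.94-fold lower in the knock-in than in *Atg7*-KO (log2 fold change -2.57, SE 0.19) and 6.14-fold lower than in cont. (-2.62, SE 0.19). Between *Atg7*-KO and cont. it differed by -0.05 (SE 0.18).

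*Cdh5* and *Pecam1* encode VE-cadherin and PECAM-1, adhesion proteins of the junctions between endothelial cells, and both were highest in *Atg7*-KO and lowest in knock-in mice. *Cdh5* measured 33.5, 24.4 and 19.9 CPM in cont., 44.1, 42.7 and 44.6 in *Atg7*-KO, and 11.0, 12.1 and 12.7 in knock-in mice. *Pecam1* measured 22.1, 19.2 and 20 CPM in cont., 31.5, 30.8 and 31.8 in *Atg7*-KO, and 10.0, 11.4 and 12.1 in knock-in mice. For both genes the 3 groups did not overlap. The step from *Atg7*-KO to knock-in was 3.66-fold lower for *Cdh5* (log2 fold change -1.87, SE 0.20) and 2.81-fold lower for *Pecam1* (-1.49, SE 0.15). Against cont., *Cdh5* was 2.17-fold lower in the knock-in (-1.12, SE 0.20) and *Pecam1* 1.83-fold lower (-0.87, SE 0.15), whereas in *Atg7*-KO they were 1.69-fold and 1.53-fold higher (0.75, SE 0.20 and 0.62, SE 0.15).

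*Tek* encodes TIE2, the angiopoietin receptor, and *Ptprb* encodes VE-PTP, the phosphatase that dampens it. Both were lower in each mutant than in cont., and differed little between the mutants. *Tek* measured 20.6, 17.3 and 24.1 CPM in cont., 14.03, 13.8 and 14.2 in *Atg7*-KO, and 10.0, 13.0 and 11.9 in knock-in mice. *Ptprb* measured 92.0, 99.8 and 128 CPM in cont., 61.1, 65.9 and 65.7 in *Atg7*-KO, and 72.6, 53.1 and 69.8 in knock-in mice. For both genes all cont. mice lay above all mice of either mutant. Between the mutants the mice overlapped for *Ptprb*. For *Tek* every knock-in mouse lay below every *Atg7*-KO mouse, with a log2 fold change of -0.27 (SE 0.18) that was not called. The log2 fold changes of *Ptprb* were -0.73 (SE 0.19) in *Atg7*-KO and -0.71 (SE 0.19) in the knock-in against cont., and those of *Tek* -0.56 (SE 0.18) and -0.82 (SE 0.18).

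*Stab1* and *Stab2* encode stabilin-1 and stabilin-2, the scavenger receptors through which sinusoidal cells take up hyaluronan and other waste. In cont. mice 2 and 3 both were well above every mutant, and cont. mouse 1 was not. *Stab1* measured 45.7, 212.5 and 162 CPM in cont. mice 1, 2 and 3, 60.7, 67.8 and 69.1 in *Atg7*-KO, and 76.3, 74.6 and 82.3 in knock-in mice. *Stab2* measured 59.8, 151.5 and 129.6 CPM in cont., 47.7, 49.9 and 52.1 in *Atg7*-KO, and 53.3, 56.1 and 55.0 in knock-in mice. With cont. mouse 1 the groups overlapped for *Stab1*, and for *Stab2* cont. mouse 1 lay only just above the highest mutant mouse. The log2 fold change of *Stab1* in *Atg7*-KO against cont. was -1.09 (SE 0.43), and -1.51 without cont. mouse 1. That of *Stab2* was -1.19 (SE 0.29), and -1.495 without that mouse. In the knock-in against cont. the values were -0.85 (SE 0.43) and -1.27 for *Stab1* and -1.05 (SE 0.29) and -1.36 for *Stab2*.

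*Lyve1*, another hyaluronan receptor, found on sinusoidal and lymphatic endothelium and on some macrophages, ran the other way in *Atg7*-KO mice. It measured 13.5, 14.8 and 9.23 CPM in cont., 36.6, 37.8 and 37.5 in *Atg7*-KO, and 15.2, 12.1 and 20.5 in knock-in mice. The *Atg7*-KO mice lay above all others, while cont. and knock-in mice overlapped. Against cont. the *Atg7*-KO level was 2.97-fold higher (log2 fold change 1.57, SE 0.24). The knock-in level was 2.34-fold lower than that of *Atg7*-KO (-1.23, SE 0.23).

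*Clec4g*, which encodes the lectin LSECtin, and *Fcgr2b*, which encodes the inhibitory Fc receptor that clears small immune complexes, had the smallest differences between *Atg7*-KO and cont. after *Kdr*. *Clec4g* measured 73.3, 72.5 and 67.0 CPM in cont., 61.3, 58.3 and 61.9 in *Atg7*-KO, and 38.1, 65.8 and 45.4 in knock-in mice. *Fcgr2b* measured 53.3, 37.3 and 46.0 CPM in cont., 52.0, 50.8 and 54.1 in *Atg7*-KO, and 24.9, 30.7 and 37.4 in knock-in mice. For *Clec4g* all cont. mice lay above all mice of either mutant, and the mutants overlapped, since knock-in mouse 2 lay above all *Atg7*-KO mice. For *Fcgr2b* all knock-in mice lay below all *Atg7*-KO mice, with a log2 fold change of -0.76 (SE 0.20). *Fcgr3*, with which *Fcgr2b* shares sequence, measured 6.34 to 9.11 CPM in cont., 38.1 to 39.8 in *Atg7*-KO and 5.78 to 8.55 in knock-in mice. Its part in the *Fcgr2b* values was not tested.

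**Figure D1:**
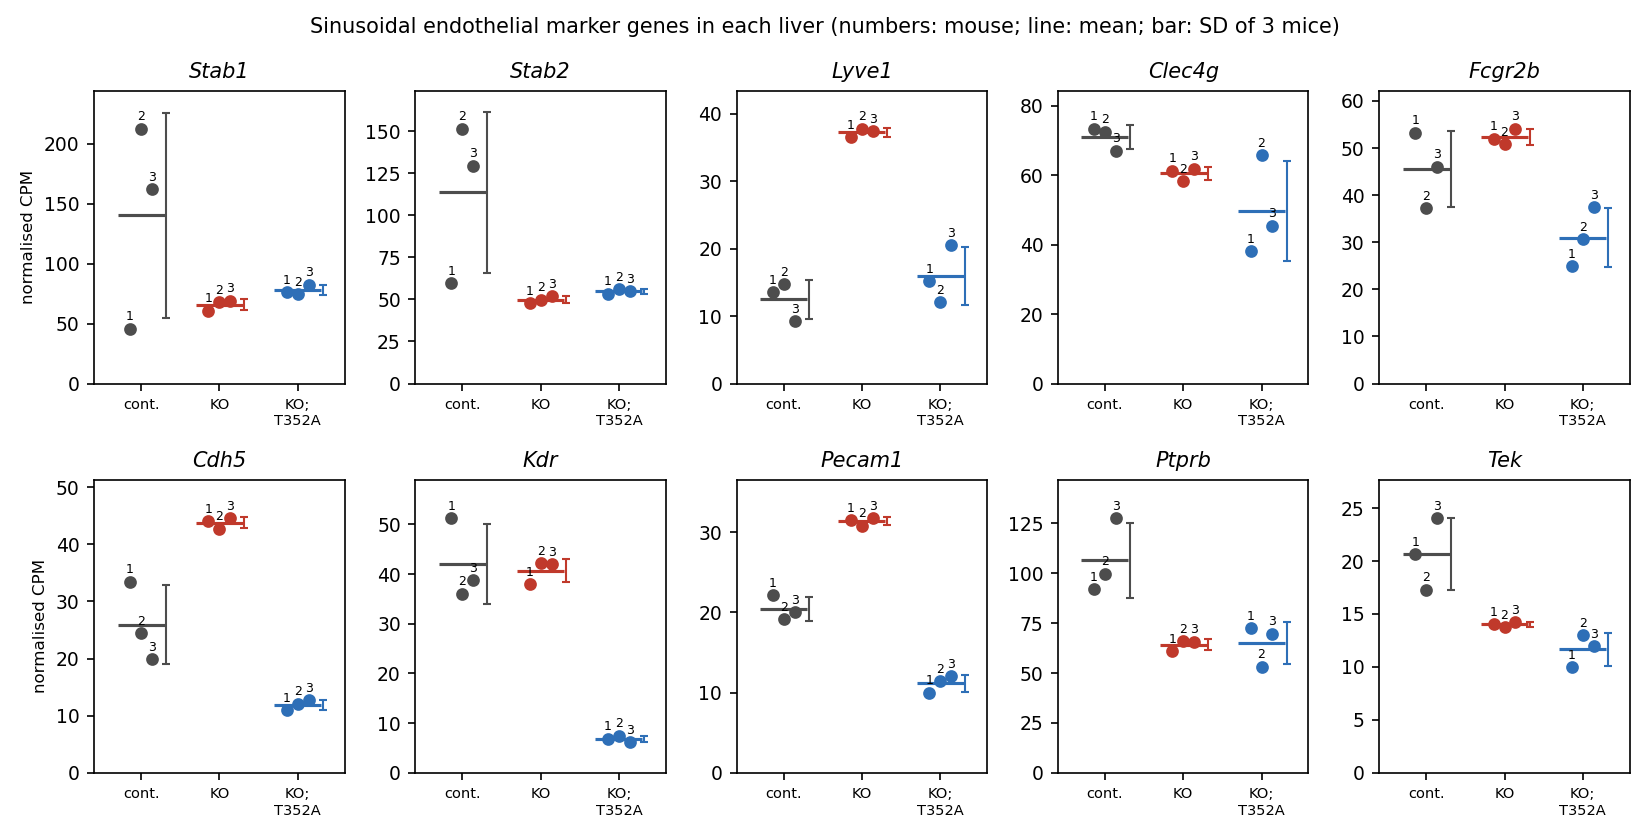
Normalised CPM (y axis, from 0) of each of the 10 marker genes in every liver, by genotype (x axis; the knock-in mice are the rightmost group). Points are mice with their numbers, lines are means and bars the SD of 3 mice. *Kdr* is at 6.20 to 7.495 in knock-in mice and at 36.0 or above in all others, and cont. mouse 1 lies apart for *Stab1* and *Stab2*.

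Counted over all genes, a gene was called at an FDR under 0.05 and a fold change over 1.5. In *Atg7*-KO against cont., 3 of the 10 genes were called higher (*Lyve1*, *Cdh5* and *Pecam1*) and 2 lower (*Stab2* and *Ptprb*), where 21.6% of all tested genes were called higher and 22.1% lower. In the knock-in against *Atg7*-KO none was called higher and 5 lower (*Kdr*, *Cdh5*, *Pecam1*, *Lyve1* and *Fcgr2b*), beside 24.7% and 26.2% of all genes. In the knock-in against cont. none was called higher and 6 lower (*Kdr*, *Cdh5*, *Stab2*, *Pecam1*, *Tek* and *Ptprb*), beside 6.25% and 5.34% of all genes. The median log2 fold changes of the 10 genes were -0.14, -0.52 and -0.84 in these comparisons, and those of all tested genes -0.03, 0.00 and 0.00. The groups did not overlap for 7, 8 and 7 of the 10 genes, against 55.5%, 73.2% and 26.6% of all genes. Since the genes were selected on these values, the counts are not read further. The first comparison and the third share the cont. mice, and the first and the second share the *Atg7*-KO mice.

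Which genes were called in the knock-in against cont. depended on single mice. Without cont. mouse 1, 7 genes were called lower, *Stab1* among them, where 12.2% of all genes were. Without knock-in mouse 1 or mouse 3, 3 genes were called lower, where 399 of 14184 and 191 of 14188 genes were in all. In the mice numbered 2 and 3 alone, which have high *Xist* in every genotype, 6, 5 and 7 of the 10 genes were called in the 3 comparisons. Of the 14060 genes tested in these mice, 3816 were called higher and 3833 lower in the first comparison, 3691 and 3884 in the second, and 1314 and 1661 in the third. *Kdr*, *Cdh5* and *Pecam1* were called lower under all 20 alternative settings in this comparison and in that with *Atg7*-KO, *Tek* under 18, *Stab2* under 10 and *Ptprb* under 9 in the comparison with cont.

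**Figure D2:**
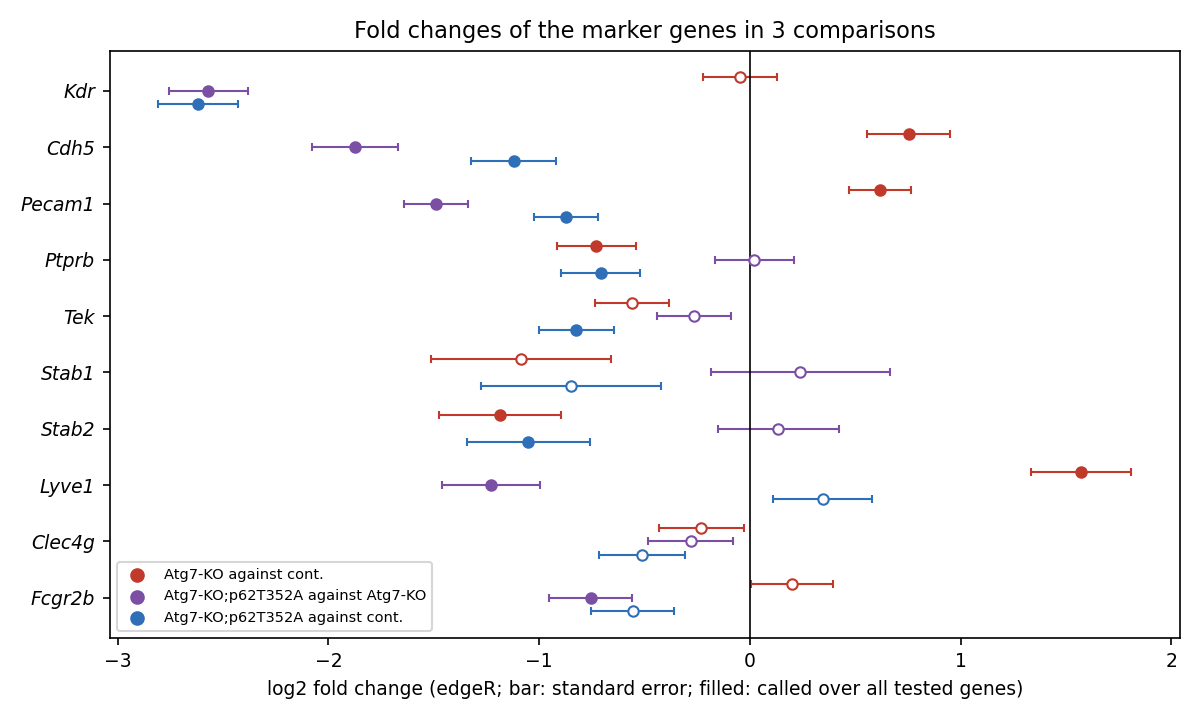
Log2 fold change (x axis) of each marker gene (y axis) in 3 comparisons, with bars for the standard error of the edgeR fit to 3 mice per genotype. Filled points were called over all tested genes and open points were not. *Kdr* lies at -2.57 and -2.62 in the comparisons of knock-in mice and at -0.05 in *Atg7*-KO mice, and *Lyve1*, *Cdh5* and *Pecam1* lie to the right of 0 in *Atg7*-KO against cont.

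To rank the genes by level, CPM were divided by the length of all exons of a gene in kb. *Clec4g* was highest in each genotype, at 28.8 ± 1.39 CPM per kb in cont., 24.6 in *Atg7*-KO and 20.2 in knock-in mice (SD, n = 3 for cont.). In cont. it was followed by *Stab1* (13.6 CPM per kb), *Stab2* (13.0), *Ptprb* (7.99), *Fcgr2b* (7.86), *Cdh5* (6.17), *Kdr* (4.66), *Tek* (4.39), *Lyve1* (4.28) and *Pecam1* (3.28). Each of these 9 overlapped its neighbour in the order over the 3 mice, so their order in cont. is not settled. In *Atg7*-KO, *Lyve1* (12.8 CPM per kb) and *Cdh5* (10.4) stood next after *Clec4g*, and only *Stab1* with *Stab2* and *Ptprb* with *Kdr* overlapped as neighbours. In the knock-in, *Kdr* was lowest at 0.759 CPM per kb, below *Pecam1* at 1.79, and the 2 did not overlap. By the length of the longest transcript, the *Clec4g* level in cont. became 49.2 CPM per kb, and *Clec4g* stayed highest in each genotype. By that length *Fcgr2b* (14.8 CPM per kb) came before *Lyve1* (12.9) in *Atg7*-KO, so the order after *Clec4g* depends on the length used.

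Each gene was then set against 32 genes expressed by endothelium of all vessels, by subtracting their mean log2 CPM in the same mouse. That mean was 3.13 to 3.56 in cont., 3.25 to 3.34 in *Atg7*-KO and 2.67 to 2.92 in knock-in mice, so it was lowest in the latter. On this log2 scale *Kdr* was still lower by 2.01 in the knock-in than in cont. mice (difference of means -2.01) and by 2.07 than in *Atg7*-KO mice (-2.07). *Cdh5* differed from cont. by -0.50, *Pecam1* by -0.29 and *Lyve1* by 0.91, and the other 6 genes by -0.37 to 0.03. In *Atg7*-KO against cont., *Lyve1* stood 1.69 above these genes' own shift, *Cdh5* 0.88 and *Pecam1* 0.71, while *Stab2* differed by -0.98, *Stab1* by -0.73, *Ptprb* by -0.62 and *Tek* by -0.45. The 10 genes thus spread in both directions around the other endothelial genes in *Atg7*-KO mice, and *Kdr* had the largest difference from cont. in knock-in mice. These differences were not tested.

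**Figure D3:**
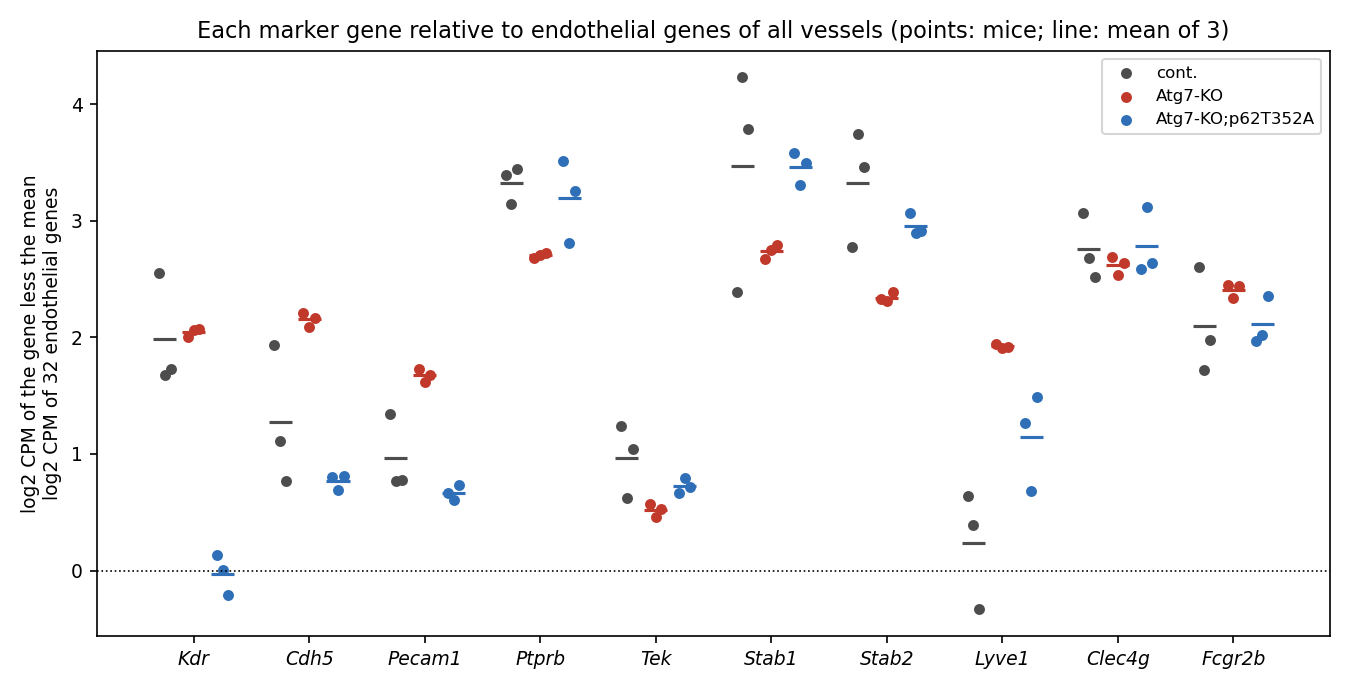
Log2 CPM of each marker gene less the mean log2 CPM of 32 endothelial genes of all vessels in the same liver (y axis), by gene (x axis) and genotype (colour). Points are mice and short lines the means of 3. *Kdr* falls to about the level of the 32 genes in knock-in mice, a difference of -2.01 from cont., and *Lyve1* is raised by 1.69 in *Atg7*-KO mice.

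Of 21 other genes of sinusoidal endothelium, 3 were called higher and 4 called lower when *Atg7*-KO was set against cont. (median log2 fold change -0.02), 2 higher and 11 lower in the knock-in against *Atg7*-KO (median -0.80), and none higher and 10 lower in the knock-in against cont. (median -0.66). The last count was 12 without cont. mouse 1 and 3 without knock-in mouse 3. *Bmp6*, the signal from these cells that sets hepcidin and thereby iron uptake, was among the most changed genes of the list: it measured 4.58, 1.89 and 1.87 CPM in cont., 14.03, 16.7 and 19.5 in *Atg7*-KO, and 0.143, 0.701 and 0.326 in knock-in mice. It rose in *Atg7*-KO (log2 fold change 2.54, SE 0.42, edgeR adjusted p = 0.0012) and was lower than cont. in knock-in mice (-2.86, SE 0.53, edgeR adjusted p = 0.0122). Without cont. mouse 1 these *Bmp6* values were 3.15 (SE 0.33) and -2.25 (SE 0.46). The knock-in mice had too few counts of *Bmp6* for a firm fold. *F8*, coagulation factor VIII, which sinusoidal cells are known to make, fell from 12.1 to 30.2 CPM in cont. to 3.71 to 4.55 in the knock-in (-2.29, SE 0.31, edgeR adjusted p = 0.00584). *F8* thus shared with *Kdr* a low level in the knock-in and no call in *Atg7*-KO, where it differed by 0.05 (SE 0.29). Without cont. mouse 1, *F8* differed from cont. by 0.49 (SE 0.18) in *Atg7*-KO, still without a call, and by -1.84 (SE 0.19) in the knock-in.

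The Wnt signals that sinusoidal and central vein endothelium sends to hepatocytes were lower in *Atg7*-KO. *Wnt2* fell there by 0.91 on the log2 scale (SE 0.23, edgeR adjusted p = 0.00945) and *Rspo3*, its amplifier, by 1.06 (SE 0.29, edgeR adjusted p = 0.0138), and neither was called in the knock-in against cont. *Ehd3*, an endocytic trafficking protein, was lower in both mutants than in cont., with log2 fold changes of -0.79 (SE 0.17, edgeR adjusted p = 0.00417) and -0.87 (SE 0.17, edgeR adjusted p = 0.0131), as *Ptprb* was. *Clec1b* and *Efnb2*, encoding CLEC-2 and the arterial ligand ephrin-B2, rose in *Atg7*-KO by 1.18 (SE 0.34, edgeR adjusted p = 0.0181) and 1.12 (SE 0.30, edgeR adjusted p = 0.0129). *Mrc1*, *Maf* and *Clec1b* of this list are also expressed by Kupffer cells.

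Of the 32 endothelial genes of all vessels, 3 were called higher and 7 called lower when *Atg7*-KO was set against cont. (median -0.06), 3 higher and 14 lower in the knock-in against *Atg7*-KO (median -0.41), and none higher and 9 lower in the knock-in against cont. (median -0.58). The last count was the least stable: it was 17 without cont. mouse 1 and between 2 and 8 without any other mouse. In *Atg7*-KO, *Acvrl1*, the endothelial receptor for BMP9, rose by 1.61 (SE 0.23, edgeR adjusted p = 0.000518), *Ecscr* by 1.36 (SE 0.24, edgeR adjusted p = 0.00158) and the ETS factor gene *Fli1* by 1.33 (SE 0.24, edgeR adjusted p = 0.00185). Among the genes of the list whose mice did not overlap, *Ushbp1*, *Adgrf5* and *Arhgef15* had the largest falls there, by 2.72, 1.32 and 1.11 on the log2 scale (edgeR adjusted p = 0.00615, 0.0118 and 0.0198). These 3 had the pattern of *Stab1* in the cont. mice, low in mouse 1: *Ushbp1* measured 7.85, 67.0 and 66.4 CPM in cont. and 6.78 to 7.72 in *Atg7*-KO. Without cont. mouse 1 their falls were 3.23, 1.68 and 1.43, and the adjusted p values 9.82e-07, 6.28e-06 and 0.000191 (edgeR). In the knock-in against cont., *Clec14a*, an endothelial surface lectin-like protein, fell by 1.55 (SE 0.32, edgeR adjusted p = 0.0175), and *Cyyr1* was called lower at 0.131 to 0.214 CPM against 0.851 to 2.81, with too few counts for a firm fold.

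**Figure D4:**
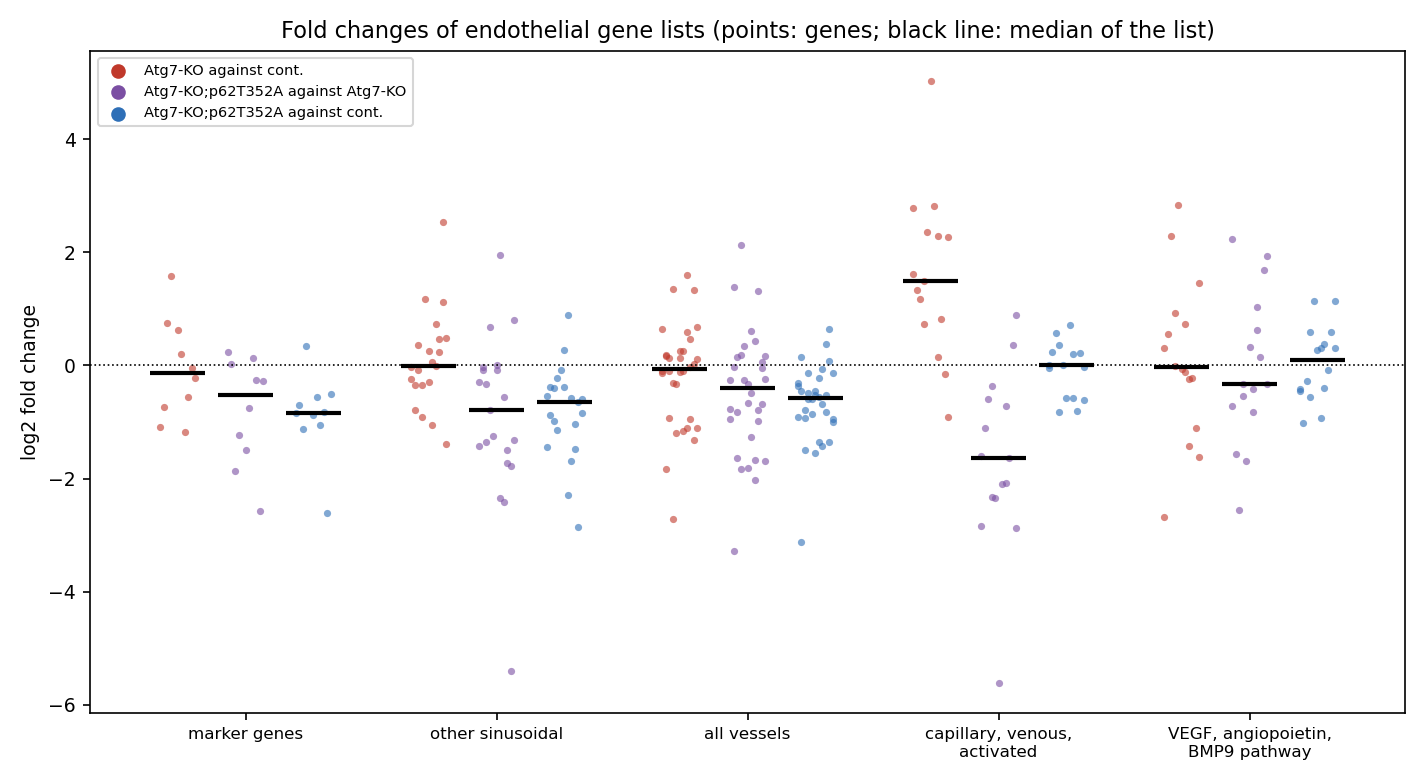
Log2 fold change (y axis) of every tested gene of 5 lists (x axis) in 3 comparisons (colours), with black lines for list medians. In the knock-in against cont. the medians of the marker genes, the other sinusoidal genes and the genes of all vessels lie at -0.84, -0.66 and -0.58, and that of the capillary, venous and activated genes at 0.00. The latter list lies at 1.498 in *Atg7*-KO against cont.

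Genes of ordinary capillaries, veins and activated endothelium moved with *Cdh5*, *Pecam1* and *Lyve1* in *Atg7*-KO mice. Of 18 such genes 15 were tested, and 12 were higher and 1 lower by these calls in *Atg7*-KO against cont. (median 1.498), 1 higher and 10 lower in the knock-in against *Atg7*-KO (median -1.63), and none higher and 1 lower in the knock-in against cont. (median 0.00). *Esm1*, a VEGF-induced gene of endothelial tip cells, measured 0.189 to 0.458 CPM in cont., 9.94 to 11.5 in *Atg7*-KO and 0.131 to 0.357 in knock-in mice (log2 fold change 5.03, SE 0.38, edgeR adjusted p = 2.5e-05 in *Atg7*-KO against cont.). The cont. and knock-in mice had too few counts of *Esm1* for a firm fold. *Cd34* rose by 2.79 (SE 0.34, edgeR adjusted p = 0.000243) and the leukocyte adhesion gene *Vcam1* by 2.81 (SE 0.22, edgeR adjusted p = 2.93e-05), while *Selp* fell by 0.92 (SE 0.32, edgeR adjusted p = 0.0411). *Lama4*, a laminin of vessel basement membrane, was the single gene called lower in the knock-in against cont. (-0.81, SE 0.22, edgeR adjusted p = 0.0425). Vessel collagens and *Vcam1* are also made by stellate cells, of whose 12 listed genes 8 were called higher in *Atg7*-KO. Their summed level was 405 to 564 CPM in cont., 929 to 1076 in *Atg7*-KO and 542 to 760 in knock-in mice, and their part in the capillary genes was not tested.

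The ligands and partners of *Kdr* and *Tek* were taken from a list of the VEGF, angiopoietin and BMP9 pathway, 16 genes of which were tested. In *Atg7*-KO against cont. 5 were called higher and 3 lower, in the knock-in against *Atg7*-KO 4 and 4, and in the knock-in against cont. 2 and 1. *Vegfa*, the ligand of VEGFR2, measured 115, 399 and 447 CPM in cont. mice 1 to 3, 48.02, 52.5 and 48.8 in *Atg7*-KO, and 291, 190 and 223 in knock-in mice. It fell by 2.69 in *Atg7*-KO (SE 0.44, edgeR adjusted p = 0.00113) and by 3.09 without cont. mouse 1 (edgeR adjusted p = 2.82e-06). In the knock-in against cont. it differed by -0.45 (SE 0.41, edgeR adjusted p = 0.518), and without cont. mouse 1 it was called lower (-0.85, SE 0.18, edgeR adjusted p = 0.0103). Ligand and receptor were thus lowest in different genotypes: *Vegfa* was lowest in *Atg7*-KO mice, where *Kdr* was at 38.0 to 42.1 CPM, and *Kdr* was lowest in knock-in mice. Without cont. mouse 1, both *Vegfa* and *Kdr* were called lower in the knock-in than in cont.

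Genes of the other VEGF receptors were also lower in the knock-in, with smaller differences from cont. than *Kdr*, which were not tested against it. *Flt1*, the decoy receptor VEGFR1, measured 10.3 to 11.7 CPM in cont. and 4.62 to 6.92 in knock-in mice (log2 fold change -0.91, SE 0.20, edgeR adjusted p = 0.024), and *Flt4*, the VEGF-C receptor VEGFR3, 26.01 to 42.9 and 17.2 to 21.5 CPM (-0.83, SE 0.20, edgeR adjusted p = 0.0293). The co-receptor gene *Nrp1* fell by 0.94 in *Atg7*-KO against cont. (SE 0.17, edgeR adjusted p = 0.00185) and rose by 1.32 in the knock-in against *Atg7*-KO (SE 0.17, edgeR adjusted p = 0.000283). *Nrp2* was lower in the knock-in than in cont. (-0.94, SE 0.21, edgeR adjusted p = 0.0217). *Flt1* and *Nrp1* stand in the list of genes of all vessels, were not picked by the naming rule, and are given as partners of *Kdr*.

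On the angiopoietin side, *Angpt1*, the agonist of TIE2, measured 0.378 to 1.10 CPM in cont., 3.41 to 4.40 in *Atg7*-KO and 0.143 to 0.979 in knock-in mice (2.29, SE 0.52, edgeR adjusted p = 0.006 in *Atg7*-KO, with too few counts in cont. for a firm fold). *Angpt2*, its antagonist, which stands in the list of activated genes, measured 0.284 to 0.974, 3.08 to 3.46 and 0.350 to 0.522 CPM. Both ligand genes were thus highest in *Atg7*-KO mice, where *Tek* and *Ptprb* were below cont. *Pdgfb*, by which endothelium recruits mural cells, rose in *Atg7*-KO by 2.84 (SE 0.27, edgeR adjusted p = 7e-05) and was above cont. in the knock-in (1.14, SE 0.28, edgeR adjusted p = 0.029). *Id1*, a target of BMP signalling, did so by 1.46 and 1.14 (SE 0.32 for both, edgeR adjusted p = 0.00536 and 0.0492).

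**Figure D5:**
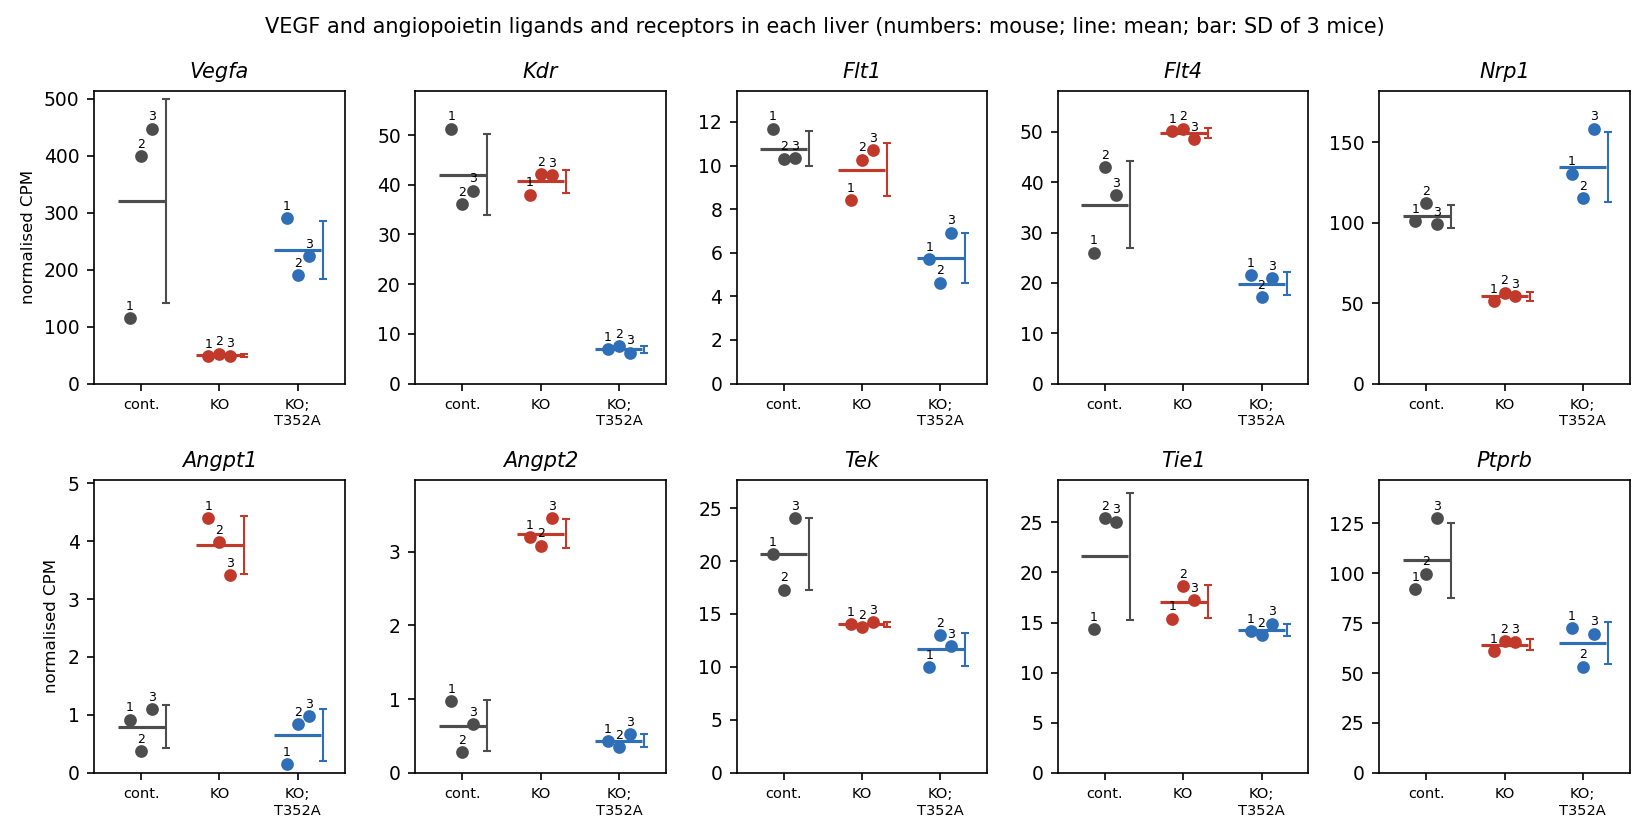
Normalised CPM (y axis, from 0) of *Vegfa*, 3 VEGF receptor genes and *Nrp1* (upper row) and of 2 angiopoietin genes, *Tek*, *Tie1* and *Ptprb* (lower row) in every liver, by genotype (x axis). Points are mice with their numbers, lines are means and bars the SD of 3 mice. *Vegfa* is lowest in *Atg7*-KO at 48.02 to 52.5, *Kdr* in knock-in mice, and *Angpt1* and *Angpt2* are highest in *Atg7*-KO.

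Several of the 10 genes are also expressed by other cells, whose markers moved with genotype. *Lyve1* is shared with lymphatic endothelium, of whose genes 5 were tested and none was called higher in *Atg7*-KO (median log2 fold change 0.49). *Flt4*, *Reln*, *Mmrn1* and *Ccl21a* of that list had log2 fold changes above 0 there without a call. Their values were 0.49 (SE 0.20), 0.51 (SE 0.17), 0.69 (SE 0.53) and 0.33 (SE 0.55). *Prox1* of that list, which hepatocytes also express, fell by 0.93 in *Atg7*-KO (SE 0.23, edgeR adjusted p = 0.00934) and by 1.43 in the knock-in against cont. (SE 0.24, edgeR adjusted p = 0.00937). *Pdpn*, another defining lymphatic gene, was at 1 to 15 counts per mouse and was not tested. *Lyve1*, *Fcgr2b*, *Pecam1* and *Stab1* are also expressed by macrophages, and of these *Lyve1* and *Pecam1* were higher in *Atg7*-KO than in cont., *Fcgr2b* differed by 0.20 (SE 0.19) and *Stab1* by -1.09 (SE 0.43), or -1.51 without cont. mouse 1. For the 13 Kupffer cell genes there were 9 calls higher and 2 lower in *Atg7*-KO against cont., and their summed level was 484 to 682 CPM in cont., 1657 to 1768 in *Atg7*-KO and 352.1 to 703 in knock-in mice.

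Among these Kupffer cell genes, *Clec4f* was called in no comparison (107 to 151 CPM in cont., 172 to 192 in *Atg7*-KO and 87.5 to 167 in knock-in mice). *Vsig4* rose by 1.48 in *Atg7*-KO (SE 0.37, edgeR adjusted p = 0.0102). *Adgre1*, *C1qb* and *C1qc* had the largest rises there, by 2.57, 2.47 and 2.32 (edgeR adjusted p = 0.002, 0.000301 and 0.000607), and *Cd163* and *Timd4*, genes of resident cells, fell by 2.71 and 1.31 (edgeR adjusted p = 0.00026 and 0.00453). All 10 genes of recruited macrophages were called higher in *Atg7*-KO against cont. and 5 in the knock-in against cont., at 59.4 to 92.3, 1221 to 1402 and 184 to 305 summed CPM in the order cont., *Atg7*-KO and knock-in. *Trem2* of this list measured 0.516 to 0.567, 13.6 to 16.6 and 3.43 to 7.70 CPM, and *Gpnmb* 0 to 0.220, 17.4 to 19.8 and 0.928 to 3.00. The part of macrophage genes in the levels of *Lyve1*, *Pecam1*, *Fcgr2b* and *Stab1* was not tested. No such part was tested for *Kdr*, *Cdh5* or the other marker genes either. B cell genes, which could add to *Fcgr2b*, summed to 5.96 to 21.9 CPM in cont., 12.4 to 18.2 in *Atg7*-KO and 10.2 to 15.3 in knock-in mice. *Cd79a* was at 1.30 to 4.29 CPM over all mice. None of 7 was called in *Atg7*-KO against cont. (edgeR at FDR 0.05). *Fcgr2b* was called lower in the knock-in against *Atg7*-KO. There *Pax5* was called higher (2.61, SE 0.72, edgeR adjusted p = 0.013) and *Cd22* lower (-1.07, SE 0.39, edgeR adjusted p = 0.0401). The other B cell genes were not called there, and the part of B cell genes in the *Fcgr2b* values was not tested.

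The 5 tested genes whose pattern over the 9 mice lay nearest to the mean of the 10 marker genes were *Zbtb46*, *Cyp4b1*, *Zfp738*, *She* and *Arhgap23*. Likeness was measured as the root mean square difference of z-scores of log2 CPM over the 9 mice, which was 0.357 to 0.394 for these genes. *Cyp4b1* measured 25.4, 26 and 29.2 CPM in cont., 22.1, 21.0 and 23.4 in *Atg7*-KO, and 9.497, 12.5 and 10.6 in knock-in mice. *She*, an adaptor gene in the list of genes of all vessels, measured 5.67, 5.48 and 8.46, then 5.51, 6.78 and 5.97, and then 1.93, 2.66 and 3.00 CPM. The mean z-score of the 10 marker genes ran from 0.34 to 0.65 in cont., from 0.25 to 0.36 in *Atg7*-KO and from -1.07 to -0.66 in knock-in mice, and thus set the last genotype apart. That mean covers opposite patterns, since z-scores of *Lyve1* were 1.19 to 1.26 in *Atg7*-KO mice and those of *Ptprb* -0.79 to -0.51.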

How the data were processed

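The authors isolated poly(A) RNA from liver, made libraries with NEBNext Ultra II, sequenced 75-base single-end reads on a NextSeq, trimmed them with Trim Galore, mapped them to mm10 with STAR and counted genes with RSEM. Versions, annotation and strand setting are not given in the sources used here. The labels and the study's methods name different RNA extraction reagents. The deposited table holds expected counts per gene and mouse, with no scaling for library size, and these were rounded to whole numbers. Columns were assigned to mice through the labels.

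In R 4.3.3, genes were filtered with filterByExpr and scaled by TMM in edgeR 4.0.16, and all 9 mice entered a single quasi-likelihood fit. A gene was called at a Benjamini-Hochberg FDR under 0.05 over 13922 genes and a fold change over 1.5. The method was tested on simulated data. Log2 CPM used a prior count of 2. Exon lengths came from GENCODE on GRCm38, to which 24054 of the 24411 symbols matched, 678 of them through a synonym. Alternatives used DESeq2 1.42.0, other scalings and filters, a replicate block, a term for the mice numbered 1 and leaving out mice. Figures were drawn in Python 3.11.15 with matplotlib 3.10.9.

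The 10 genes and the gene lists were chosen with earlier results of these data known. Beside the 10 genes, the text names, per list, the genes with the largest called rises and falls between *Atg7*-KO and cont. (up to 3 each) and between the knock-in and cont. (up to 2 each) whose mice did not overlap and whose mean was at least 1 CPM, and fixed markers of other cells. Some genes outside this rule are named as partners of *Kdr* and *Tek*, as neighbours in sequence or as signals next to them. Others are named as further lymphatic and B cell genes. All of these were chosen after their values were seen. A gene that this rule picked is not reported here.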

Additional observations from a re-analysis of the deposited data

How the results depend on the processing

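No called value reversed its direction under any of the alternatives run. Counts of called genes are given as the lowest and highest over leaving out each mouse in turn: for the 10 marker genes 4 to 6 in *Atg7*-KO against cont., 5 to 5 in the knock-in against *Atg7*-KO and 3 to 7 in the knock-in against cont., for the other sinusoidal genes 3 to 9, 12 to 13 and 3 to 12, and for the genes of all vessels 6 to 13, 13 to 18 and 2 to 17. The counts of 6 for the vessel genes came without *Atg7*-KO mouse 1, of 3 for the sinusoidal genes in the comparison with cont. without *Atg7*-KO mouse 3, and of 2 and 17 without knock-in mouse 3 and without cont. mouse 1. Over all genes, of which 14103 to 14207 were tested, the fits without 1 mouse called 2383 to 3984 higher and 2149 to 3976 lower in *Atg7*-KO against cont. They called 2667 to 4007 and 2985 to 4135 in the knock-in against *Atg7*-KO, and 244 to 1514 and 191 to 1731 in the knock-in against cont. With the mice numbered 2 and 3 only, 15 vessel genes were called in the knock-in against cont., where the fit to all mice called 9. The length of the longest transcript moved *Clec4g* in cont. from 28.8 to 49.2 CPM per kb. Under upper-quartile scaling the median of all genes in the knock-in against *Atg7*-KO was -0.14, where it was 0.00 under TMM, and *Ptprb* there went from 0.02 to -0.12 without being called in either. Offsets for transcript length and GC content were chosen after seeing the data; under them *Fcgr2b* was not called in the knock-in against *Atg7*-KO (-0.54) and *Pecam1* not in *Atg7*-KO against cont. (0.46).

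The genotypes share mouse numbers, and the numbers were not taken as pairs. Deviations from the genotype means correlated between same-numbered mice by 0.22 for number 1, -0.03 for number 2 and 0.25 for number 3 on average. Mice of different numbers were not compared in this way, so these values cannot show whether the numbers are pairs. Over all genes, 870 were called higher and 743 lower in the knock-in against cont.; these counts were 1514 and 1731 without cont. mouse 1, 1314 and 1661 with the mice numbered 2 and 3 only, 310 and 542 without cont. mouse 2, 244 and 191 without knock-in mouse 3, 375 to 560 and 372 to 412 without any other mouse except cont. mouse 3 (802 and 818), 1035 and 1196 with DESeq2, 576 and 685 with the offsets, and 517 and 471 with a replicate block. With a replicate block, 5, 5 and 4 of the 10 marker genes were called in the 3 comparisons, 6, 12 and 9 of the other sinusoidal genes and 8, 17 and 7 of the vessel genes. Of all 13922 genes, 2989 were called higher and 2764 lower with that block in *Atg7*-KO against cont. In the knock-in against *Atg7*-KO 3365 were called higher and 3629 lower with it. Over all alternatives there were 1806 values of single genes. Fold changes of the 10 marker genes were judged against their standard error, and levels of these genes against the SD between mice. Other named genes were judged by whether they stayed called. By these rules 1663 values stayed the same, 97 values of other named genes lost the call and 46 values of marker genes moved. Marker genes that lost a call are not counted in the 97. With 3 mice per genotype and as few as 84 counts of a marker gene in a mouse, differences of the size of that of *Clec4g* between *Atg7*-KO and cont. (-0.23, SE 0.20) are near their standard error.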

Other observations

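Genes of the cells next to the sinusoidal endothelium also differed. Of 12 hepatic stellate cell genes, 8 were called higher and 2 called lower when *Atg7*-KO was set against cont., 2 higher and 7 lower in the knock-in against *Atg7*-KO, and 2 higher and none lower in the knock-in against cont. The fibrillar collagen genes *Col1a1* and *Col3a1* rose in *Atg7*-KO by 4.20 and 3.85 on the log2 scale (edgeR adjusted p = 9.91e-05 and 5.69e-05), and *Col3a1* remained above cont. in knock-in mice (1.29, edgeR adjusted p = 0.0315), as did *Dcn* (0.80, edgeR adjusted p = 0.0472). *Lrat*, the enzyme that stores retinoids, measured 15.6 to 24.2 CPM in cont., 37.1 to 71.1 in *Atg7*-KO and 13.8 to 17.9 in knock-in mice, and the pericyte gene *Rgs5* rose by 1.43 in *Atg7*-KO (edgeR adjusted p = 0.0179). *Hhip*, an inhibitor of hedgehog signalling, and *Ecm1* fell there by 3.16 and 1.63 (edgeR adjusted p = 0.000804 and 0.00386).

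Of 6 cholangiocyte genes, 5 were called higher in *Atg7*-KO and 3 in the knock-in against cont. *Epcam* rose in *Atg7*-KO by 4.04 (edgeR adjusted p = 1.37e-05) and *Spp1*, also a macrophage gene, by 4.69 (edgeR adjusted p = 1.4e-05), *Krt19* measured 0.946 to 2.31 CPM in cont. and 6.44 to 7.85 in *Atg7*-KO mice, and *Cftr* 0 to 0.115 and 2.94 to 4.93. *Sox9* was above cont. in knock-in mice by 2.65 (edgeR adjusted p = 0.00322). Of 10 hepatocyte genes, 8 were called lower in *Atg7*-KO against cont. and 8 higher in the knock-in against *Atg7*-KO. *Alb* fell in *Atg7*-KO by 1.26 (edgeR adjusted p = 0.00959), and the largest falls were those of *Ass1*, *Tat* and *Serpina1a*, by 3.33, 2.38 and 1.88 (edgeR adjusted p = 0.000254, 0.000111 and 0.000212). *Cps1* was the hepatocyte gene called lower in the knock-in against cont. (-1.17, edgeR adjusted p = 0.028). Of 6 platelet genes 3 were tested, and in *Atg7*-KO *Pf4* rose by 2.27 (edgeR adjusted p = 0.00049) while *Itga2b* fell by 2.08 (edgeR adjusted p = 0.0146).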
